A study of Rattus norvegicus with 4 samples.

Results

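Cells take apart worn-out proteins and organelles in the lysosome, and 40 genes of that route were measured here in NRK-52E cells, a rat kidney epithelial line, after oxidative injury. They are the genes whose current rat symbol marks a cathepsin (Cts), a lysosome-associated membrane protein (Lamp), a subunit or accessory protein of the vacuolar proton pump (Atp6v, Atp6ap), an autophagy gene (Atg), an Atg8 homologue (Gabarap, Map1lc3), a sialidase (Neu) or a lysosomal hexosaminidase gene (such as Hexa). Of 52 such genes with a named probe, 40 were well above background on at least 1 array, among 6023 such genes of 8957 named in all. The 12 others were Atp6v0a2, Atp6v1c2, Ctsc, Ctsh, Ctsj, Ctsm, Ctsq, Ctsr, Ctsz, Lamp3, Lamp5 and Neu2.

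By its title, the series seeks signals that dying cells send to make their neighbours grow. Confluent NRK-52E cultures were given 0 (the control), 0.003, 0.006 or 0.009% hydrogen peroxide (H2O2) in medium for 1 h, washed, and kept 12 h in medium without serum, the control included. Total RNA of each dose was hybridised to 1 Cy3 array, which makes 4 arrays in all, without replicate cultures. All 4 lay on 1 slide, so that an effect of the dose cannot be told apart from one of the place on the slide.

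The lysosome is an acidic compartment filled with hydrolases that work at low pH. The V-ATPase acidifies it: a cytosolic V1 sector splits ATP and turns a membrane V0 sector that carries protons. Autophagy delivers cargo to it in a double membrane whose growth depends on lipid-linked Atg8 proteins, attached by a ubiquitin-like chain of enzymes in which Atg7 acts as the E1 and Atg3 as the E2. Many lysosomal genes are targets of TFEB and related factors, which bind a CACGTG element called CLEAR. In kidney tubule cells lysosomes also break down proteins reabsorbed from the filtrate.

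Values are log2 spot signals relative to the 75th percentile of the array, which was a signal of 180 in the control and of 168, 158 and 121 at the rising doses. No spot was saturated, and 51.8 to 54.9% of probes were well above background. Differences from the control carry the scanner software's spot error (±), which covers the reading of a spot and not the spread between cultures. Of 8 tubule epithelial markers on the array, Krt8, Krt18, Cdh16 and Aqp1 were well above background on all 4 arrays, and Epcam and Pax8 on none. Other scalings moved every difference by a constant: the array median by -0.15, -0.31 and -0.56 at 0.003, 0.006 and 0.009%, and spike-in probes by -0.22, -0.54 and -1.18. A position relative to the median of all named genes is not touched by such a constant, except through which dim genes have a bound, and so it is given for each gene group.

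Most lysosomal enzymes lay below the middle of all named genes, and most autophagy genes above it. Of 15 cathepsins, glycosidases and Lamp proteins, 12 lay below the median difference of all named genes at 0.003%, 12 of 15 at 0.006% and 11 of 14 at 0.009%, where by definition 50% of named genes do. Of 11 ATG and Atg8 genes, 3, 2 and 2 lay below it, and 4 at 0.006% with quantile normalization; without a filter on dim probes, which adds genes near background, 6 did at each of the 2 higher doses. The V-ATPase genes were divided, with 9 of 14, 8 of 13 and 9 of 13 below it. At 0.009% spike-in scaling gave 10 for the lysosomal enzymes and membrane proteins and 7 for the V-ATPase, and normexp background correction gave 9 and 9. The group medians were -0.49, -0.24 and -0.10 for the lysosomal enzymes and membrane proteins, -0.18, -0.15 and 0.02 for the V-ATPase, and 0.32, 0.23 and 0.46 for the ATG and Atg8 genes, against 0.02, -0.03 and 0.06 for all named genes.

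**Figure D1:**
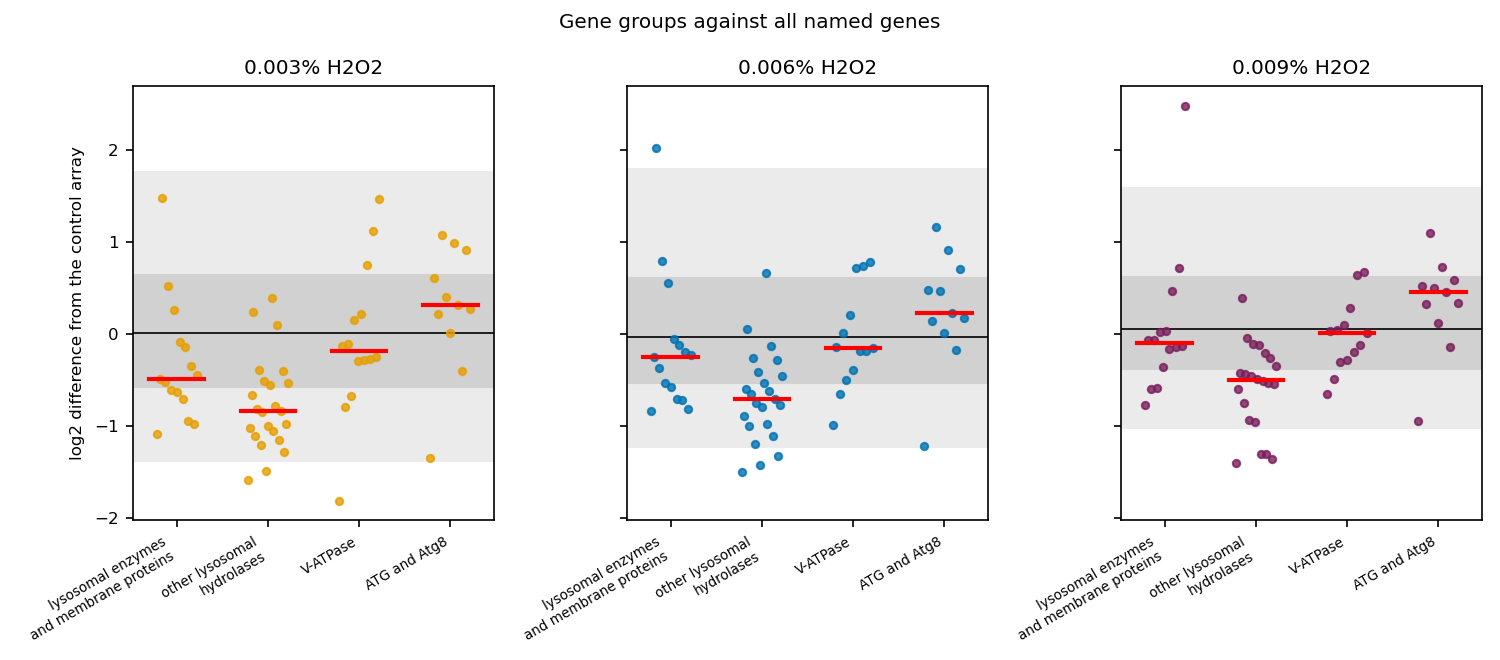
Log2 differences from the control array (y axis) of single genes (points, bounds included) in 4 groups at each dose, with the group median in red. The grey bands span the middle 50% and 90% of all named genes and the black line their median. The other lysosomal hydrolases, with medians of -0.83, -0.71 and -0.50, lie lowest, and the ATG and Atg8 genes lie mostly above the line.

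Most single differences were small. At least 2-fold higher than the control were 4 of 40 members at 0.003%, 2 of 39 at 0.006% and 2 of 38 at 0.009%, where 16.2, 15.1 and 14% of all named genes were. At least 2-fold lower were 3, 1 and 0 members, against 12, 8.19 and 5.21% of named genes. With spike-in scaling the counts were 2, 1 and 1 higher and 6, 10 and 25 lower. Of named genes 12.1, 6.91 and 2.67% were then higher and 18.2, 27.9 and 59% lower. The array median gave 2, 1 and 1 higher and 5, 6 and 6 lower, with 13.2, 9.43 and 5.2% of named genes higher and 15.8, 17.6 and 21.8% lower. Quantile normalization gave 3, 1 and 1 higher and 5, 2 and 0 lower, with 14.1, 12.1 and 8.42% of named genes higher and 12.9, 9.53 and 7.8% lower. All 7 members past 2-fold at any dose are described below: Gabarapl1, Atp6v1b2, Atp6v1h and Ctss above the control, and Neu1, Atg7 and Atp6v0d2 below it. Because each dose had a single array, 2-fold only sets a size and tests nothing.

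**Figure D2:**
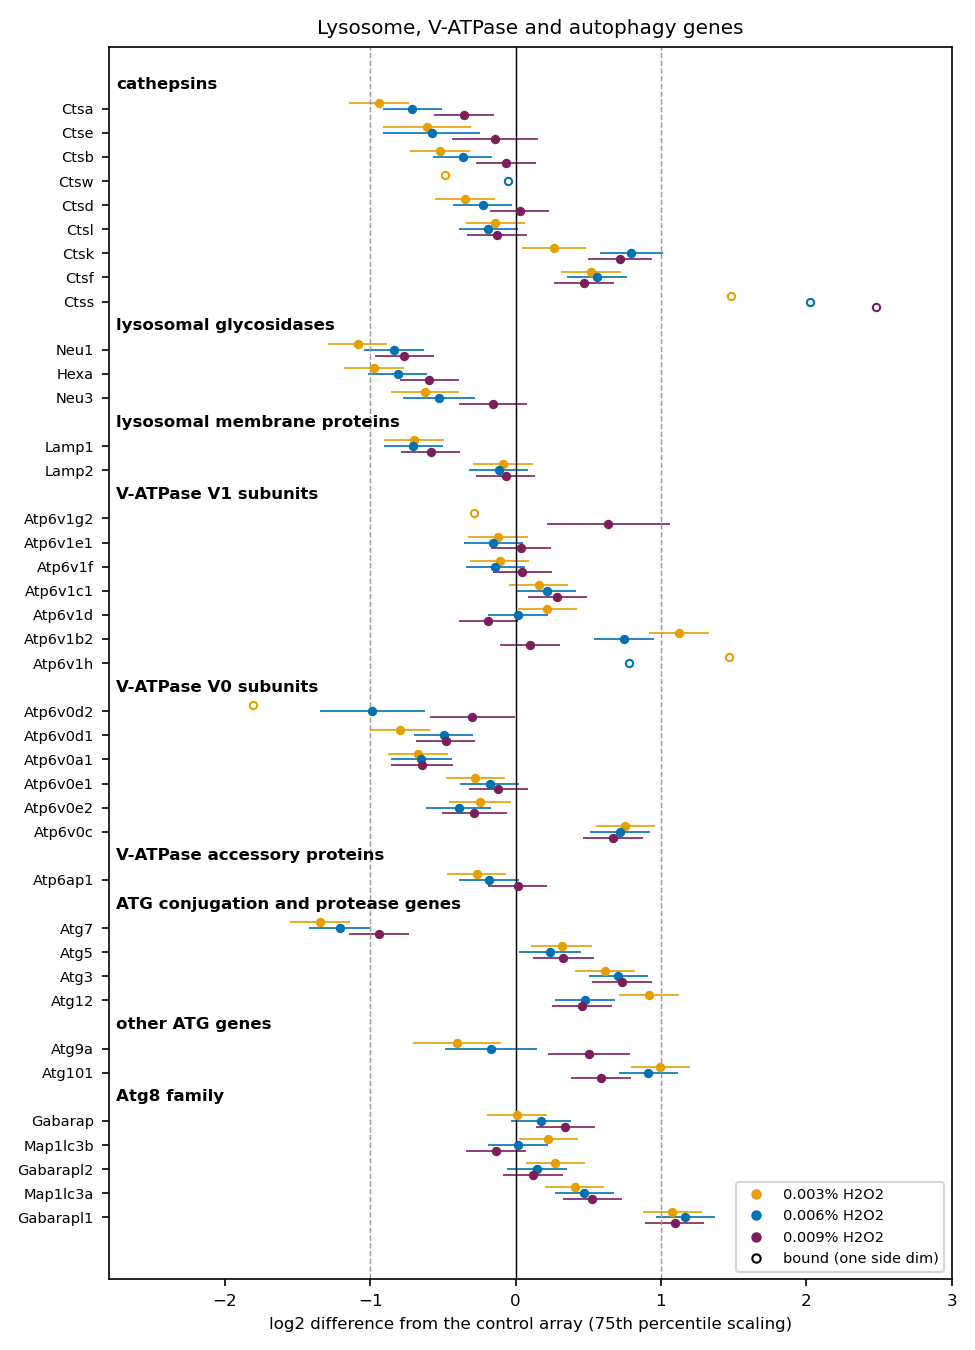
Log2 difference from the control array (x axis) of 39 of the 40 members, by role, at 0.003, 0.006 and 0.009% H2O2. Bars are the spot error, open circles are bounds where 1 array was not well above background, and dashed lines mark 2-fold. Neu1, Hexa and Lamp1 lie to the left at every dose, and Gabarapl1 lies to the right at every dose, though at -0.09 at 0.009% with spike-in scaling.

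The glycosidases Neu1, Hexa and Neu3, which trim sugars from glycoproteins and glycolipids, were lower than the control at 0.003 and 0.006%. Neu1, the lysosomal sialidase, stood at 3.40 in the control and at 2.31, 2.56 and 2.63 over the 3 doses. Its exposed arrays were all below the control and close to each other, with differences of -1.09, -0.84 and -0.76 (± 0.20), or 2.12-fold, 1.79-fold and 1.70-fold lower. With spike-in scaling they were further apart, at -1.30, -1.37 and -1.95. A second Neu1 probe gave -0.79, -0.91 and -0.75. Hexa, the alpha subunit of beta-hexosaminidase, stood at 4.41 in the control and at 3.44, 3.60 and 3.82 over the doses, so that it was 1.96-fold, 1.75-fold and 1.51-fold lower. Neu3, a sialidase of the plasma membrane that also acts on gangliosides, was at -0.62, -0.53 and -0.16, the last turning positive with normexp.

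Among 9 cathepsins, the proteases of the lysosome, 6 were below the control at 0.003 and 0.006%, Ctsw by a bound. Ctsa, a serine carboxypeptidase that also protects Neu1 in a complex, stood at 7.02 in the control and at 6.08, 6.31 and 6.66. It was lowest at 0.003%, 1.92-fold below the control, and nearest to it at 0.009%, at 1.28-fold. Its 2 further probes put the differences at -0.91, -0.82 and -0.59, and at -1.10, -0.99 and -0.90. Under the 75th percentile scaling all 3 probes differed least from the control at 0.009%, by sizes that depended on the probe. With spike-in scaling the brightest probe was at -1.16, -1.25 and -1.54, and so differed most at 0.009%. The cysteine protease Ctsb was at -0.52, -0.36 and -0.07, and the aspartic protease Ctsd at -0.35, -0.23 and 0.03, the last negative under the array median, quantile, spike-in and normexp settings. Ctsl, another cysteine protease, was at -0.14, -0.19 and -0.13 (± 0.20), within the spot error at each dose. Ctse, an aspartic protease with a dim probe, was at -0.61, -0.58 and -0.14, turning positive with normexp at the 2 higher doses.

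Above the control lay Ctss, Ctsk and Ctsf. Ctss, a cysteine protease typical of antigen-presenting cells, was not well above background in the control and stood at -2.66, -2.11 and -1.66 over the doses. The difference was at least 2.79-fold, 4.08-fold and 5.58-fold, or 1.48, 2.03 and 2.48 on the log2 scale. Normexp gave 0.33, 0.56 and 0.89 and spike-in scaling bounds of 1.26, 1.49 and 1.30, so that the order of the 2 higher doses turned with the latter. Both Ctss probes behaved so: the second was at -3.06, -2.59 and -1.96 over the doses, against -4.19 in the control, where it too was not well above background. Of 7 macrophage markers 6 had a named probe, of which Cd68 and Cd14 were well above background on all 4 arrays and Itgam on none; the summed level of the 6, relative to the 75th percentile, was 42.1 in the control and between 22.6 and 27.1 in the exposed cultures. Most of that sum was Cd14, which was at -0.71, -1.10 and -1.06, whereas Cd68 was at 0.28, 0.79 and 0.88 (the last smaller in size than the shift of spike-in scaling, which turns it negative), and Aif1 was bounded at -0.51 and -0.05 and then at 0.93. The cultures were of an epithelial line, and no link between these markers and the Ctss values was tested. Ctsk, a collagen-degrading protease, stood at -1.74, -1.48, -0.95 and -1.02, and so was 0.26, 0.80 and 0.72 above the control, the last negative with spike-in scaling. The fibroblast markers with a named probe, 4 of 6, had a summed level of 28.6 in the control and 8.47, 12.2 and 17.8 over the doses. Thy1 and Dcn were not well above background on any array. No link between these markers and the Ctsk values was tested. Ctsf was at 0.52, 0.56 and 0.47, the last negative with array median and spike-in scaling. Ctsw was well above background in the control only, and bounded at -0.49 and -0.05 at the lower doses.

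**Figure D3:**
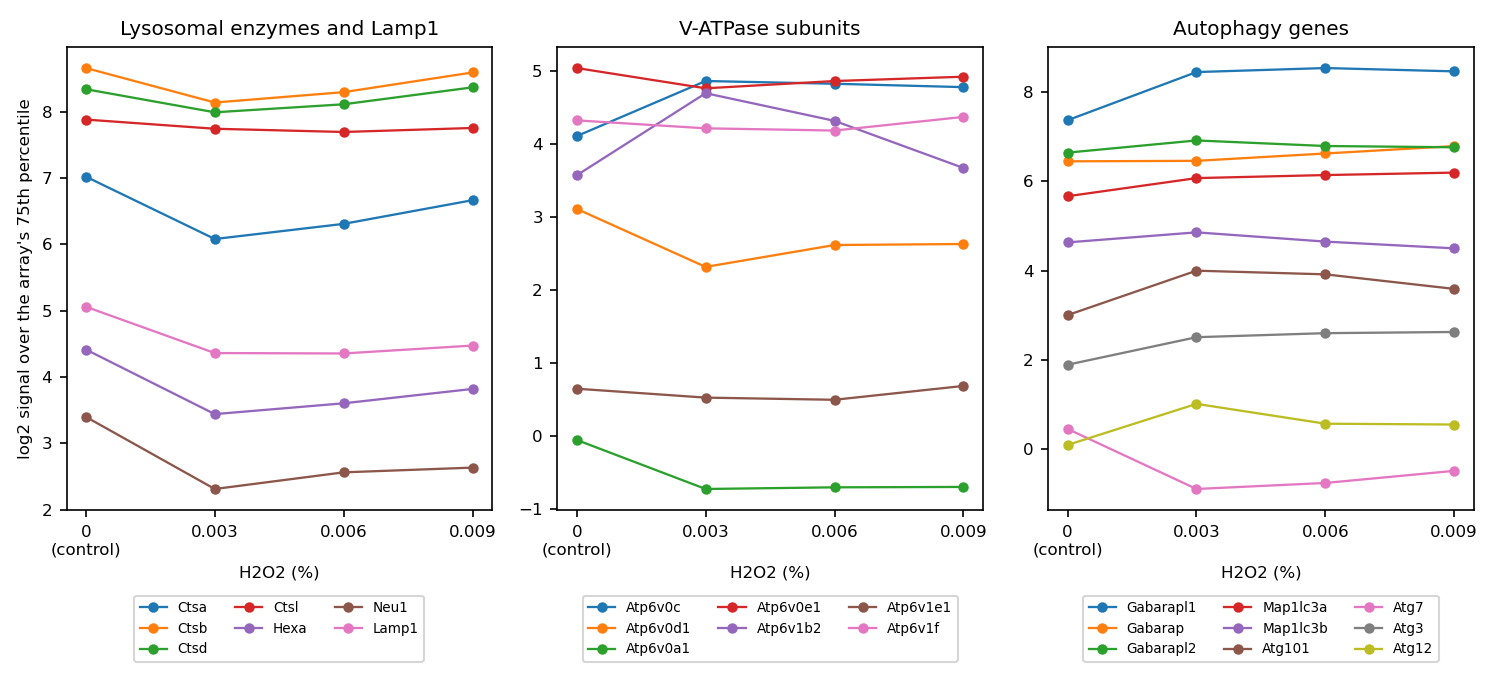
Log2 signal relative to the array's 75th percentile (y axis) against the H2O2 dose (x axis), 1 array per dose, 1 line per gene; heights of different lines are not comparable, because probes differ. Ctsa, Hexa and Neu1 are lowest at 0.003%, Atp6v1b2 peaks there and returns to 3.67, and Gabarapl1 stays between 8.45 and 8.54 in the exposed cultures; these shapes depend on the scaling, as given in the text.

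The Lamp proteins line the lysosomal membrane with heavily glycosylated domains. Lamp1 stood at 5.06 in the control and at 4.36, 4.35 and 4.47 over the doses, 1.62-fold, 1.63-fold and 1.50-fold lower. Its exposed arrays were alike under this scaling, with quantile normalization (-0.84, -0.83 and -0.70) and with normexp (-0.67, -0.76 and -0.78). They were further apart with the array median, at -0.84, -1.02 and -1.15, and with spike-in scaling, at -0.91, -1.24 and -1.77. Lamp2, which also serves chaperone-mediated autophagy, was at -0.09, -0.12 and -0.07, within the spot error of ± 0.20. Lamp1 was thus further below its control than Lamp2 by 0.61, 0.59 and 0.52 (± 0.29).

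The promoter of Lamp1 carries repeated CLEAR-type elements, and it is shown with those of the other members that have one, since these members did not lie on 1 side of the control. RefSeq promoters (GRCr8, the 250 bases before the gene start) were held for 29 of the 40 members. The 7-letter core TCACGTG, read on both strands, was found in 4 of the 29, which is 13.8%, and in 2.79% of all 33469 promoters. Its inner letters CACGTG, the E-box, which every core match contains, were found in 6 of 29 (20.7%) and in 5.59% of all. In the stretches that follow, written 5′ to 3′ on the strand of the gene, capitals mark every match to the core.
Lamp1 (chr16:83075084-83075263, minus strand): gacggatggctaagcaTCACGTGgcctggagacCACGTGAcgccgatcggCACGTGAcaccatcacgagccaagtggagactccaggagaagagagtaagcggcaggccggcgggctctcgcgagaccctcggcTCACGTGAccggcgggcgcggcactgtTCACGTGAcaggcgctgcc
Ctsd (chr1:206968822-206968881, minus strand): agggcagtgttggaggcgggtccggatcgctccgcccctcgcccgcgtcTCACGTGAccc
Atp6v0d1 (chr19:50357269-50357328, minus strand): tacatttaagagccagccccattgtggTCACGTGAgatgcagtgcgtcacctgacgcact
Atg3 (chr11:69159281-69159340, minus strand): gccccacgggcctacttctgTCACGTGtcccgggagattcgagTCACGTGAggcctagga
Lamp1 holds 5 such elements, Ctsd 2 (1 of them upstream of the stretch shown), Atg3 2 and Atp6v0d1 1. At 0.003% these genes differed in direction: Lamp1 was at -0.70, Ctsd at -0.35 and Atp6v0d1 at -0.79, while Atg3 was at 0.62. A match describes letters only and shows no binding. The antioxidant response element TGACNNNGC was found in 2 of 29 promoters, those of Ctsl and Gabarap, against 10.1% of all promoters, and the amino acid response element TGATGNAAN in 0 of 29, against 3.38% of all.

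Subunits of the V-ATPase did not keep step with each other. In the V0 sector, Atp6v0c, which encodes the proteolipid of the proton-carrying ring, stood at 4.11 in the control and at 4.87, 4.83 and 4.78, above it by 0.76, 0.72 and 0.67 (± 0.20), the last negative with spike-in scaling. Atp6v0d1, which links the ring to the central stalk, stood at 3.11 in the control and at 2.32, 2.62 and 2.63, below it by 0.79, 0.49 and 0.48 in size. The ratio of these subunits was therefore 2.93-fold, 2.32-fold and 2.22-fold higher than in the control at the 3 doses, a value that no scaling constant alters. Atp6v0a1, an isoform of the large membrane subunit, was at -0.67, -0.65 and -0.64, and its second probe at -0.72, -0.47 and -0.51. Atp6v0e1 and Atp6v0e2, small membrane subunits, were within -0.39 and -0.12 at all doses. Atp6v0d2, a subunit isoform of restricted tissues, stood at -2.27 in the control, was not well above background at 0.003%, where it was at least 3.49-fold lower, and stood at -3.26 and -2.57 at the higher doses; with normexp its difference at 0.003% was -0.40 and that at 0.009% turned positive.

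In the V1 sector, Atp6v1b2, a ubiquitous B subunit of the ATP-splitting head, stood at 3.57 in the control and at 4.70, 4.32 and 3.67 over the doses. It was 2.18-fold higher at 0.003%, 1.68-fold at 0.006% and 1.07-fold at 0.009%, the last turning negative under the array median, spike-in and normexp settings. Its second probe repeated the order, at 1.74, 1.06 and 0.15. Other V1 genes differed little: Atp6v1e1, of the peripheral stalk, was at -0.12, -0.15 and 0.04, and Atp6v1f at -0.11, -0.14 and 0.05, within the spot error, and both positive values turned negative under the array median, spike-in and normexp settings. Atp6v1b2 was above Atp6v1e1 in its difference by 1.25 at 0.003% and by 0.06 at 0.009% (± 0.29). Atp6v1c1 was at 0.16, 0.21 and 0.29, and Atp6v1d at 0.22, 0.02 and -0.19; the values of Atp6v1c1 turned negative at all doses with spike-in scaling and that of Atp6v1d at 0.006% with array median, spike-in and normexp. Atp6v1h, a regulatory subunit, was well above background at 0.003 and 0.006% only, at least 2.76-fold and 1.72-fold higher than the control, but 0.48 and 0.34 on the log2 scale with normexp. Atp6v1g2, a neuronal isoform, was near background throughout, with a bound of -0.29 at 0.003% and 0.64 ± 0.42 at 0.009%, the latter negative with quantile and spike-in scaling. The accessory protein gene Atp6ap1 was at -0.27, -0.18 and 0.02, the last negative under the array median, quantile, spike-in and normexp settings.

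Among the Atg8 homologues, which tag the growing autophagosome and bind cargo receptors, Gabarapl1 stood apart. It stood at 7.37 in the control and at 8.45, 8.54 and 8.46 over the doses. The 3 exposed arrays were close to each other and all above the control, by 1.08, 1.17 and 1.09 (± 0.20), or 2.11-fold, 2.25-fold and 2.14-fold, although with spike-in scaling the value at 0.009% was -0.09. Its nearest relative Gabarap stood at 6.45, 6.46, 6.62 and 6.79, or 0.01, 0.18 and 0.34 above the control, values that all turned negative under array median, quantile and spike-in scaling. The difference of Gabarapl1 exceeded that of Gabarap by 1.07, 0.99 and 0.75 (± 0.29), and that of Gabarapl2 by 0.81, 1.02 and 0.97. Gabarapl2 was at 0.27, 0.15 and 0.12, the 2 higher doses turning negative under array median, quantile and spike-in scaling. Map1lc3a, which encodes a form of LC3, was at 0.41, 0.47 and 0.53, negative at the 2 higher doses with spike-in scaling and at 0.009% with the array median. Map1lc3b, the form most used as an autophagosome marker, was at 0.22, 0.02 and -0.13, and the middle value turned negative under array median, quantile, spike-in and normexp settings and when both its probes were averaged.

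The enzymes that attach Atg8 proteins to lipid lay on different sides of the control. Atg7, the E1-like enzyme, stood at 0.45 in the control and at -0.89, -0.75 and -0.48 over the doses. All exposed arrays lay below the control, by 2.54-fold, 2.31-fold and 1.92-fold. Atg3, the E2-like enzyme that acts directly after Atg7, stood at 1.89, 2.51, 2.60 and 2.63, and so was 0.62, 0.71 and 0.73 (± 0.20) above the control, the last negative with spike-in scaling. Atg12, the ubiquitin-like partner of Atg5, was at 0.92, 0.48 and 0.46, with a second probe at 1.65, 1.60 and 0.86; the first probe's value turned negative at the 2 higher doses with spike-in scaling and at 0.009% with the array median. Atg5 was at 0.32, 0.23 and 0.33, the 2 higher doses turning negative with array median and spike-in scaling.

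Of the genes that start the autophagosome, Atg101, which stabilises the kinase complex of ULK1, stood at 3.0 in the control and at 4.0, 3.92 and 3.59. It was 1.99-fold, 1.88-fold and 1.50-fold higher, with the last value at -0.60 under spike-in scaling. Against Atg7 the gap in the differences was 2.34, 2.12 and 1.53 (± 0.29). This was the widest among the 9 pairs of members compared, which were chosen after values were seen. Atg9a, a membrane protein that brings lipid to the growing membrane, was at -0.40, -0.17 and 0.51 (± 0.28 at 0.009%), the last negative with array median and spike-in scaling and the middle one positive with normexp.

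A straight line over dose was fitted with limma to 23770 features, and 0 were called at an adjusted p of 0.05 (0%), with 3262 (13.7%) at an unadjusted p under 0.05. Of the 40 members 0 were called, and Ctss alone was under the unadjusted threshold, with a limma adjusted p of 0.261. Its control level was not well above background and it passed the filter through the exposed arrays, so no slope is given. When the 3 exposed arrays were set against the control instead, 0 of 23770 features and 0 members were again called. An unadjusted limma p under 0.05 was found for 5871 features (24.7%) and 4 of 40 members: Atg7, Gabarapl1, Neu1 and, with that same limit, Ctss. The smallest limma adjusted p of a member was 0.091. These fits have 2 residual degrees of freedom. Their residual holds single arrays only.

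Over the 4 arrays, 35 members were well above background on each, and their order over dose was read without any minimum step. Lower at 0.003% and then higher at both later steps were 14 of 35 (40%), against 30% of named genes, with Atg7, Atg9a, Atp6ap1, Atp6v0a1, Atp6v0d1, Atp6v0e1, Ctsa, Ctsb, Ctsd, Ctse, Hexa, Neu1 and Neu3 among them. Higher at 0.003% and then lower at both later steps were 7 (20%), against 27.4%: Atg101, Atg12, Atp6v0c, Atp6v1b2, Atp6v1d, Gabarapl2 and Map1lc3b. Atg3, Atp6v1c1, Gabarap and Map1lc3a were higher at every step, 11.4% of the members against 9.25% of named genes, and 0 members were lower at every step, against 5.94%. These shapes depend on the scaling. With spike-in scaling 21 members were lower at every step and 0 followed the first of the shapes above, and with the array median 10 and 3 did. Both scalings lower every gene by a constant that grows with dose. The share of named genes with these shapes under them is not given, so the counts are not read as a trait of the members.

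The arrays at 0.009 and 0.003% can be compared without the control. At least 2-fold higher at 0.009% were 2 of 39 members, Atp6v0d2, by at least 2.84-fold, and Ctss, by 2.0-fold (0.03 on the log2 scale with spike-in scaling), where 8.95% of named genes were. At least 2-fold lower was Atp6v1b2, at -1.02 ± 0.20, where 5.62% of named genes were. Spike-in scaling turned this to 0 higher and 10 lower. That scaling lowers every gene at 0.009% relative to 0.003% by a constant, and the share of named genes under it is not given. Neu1, Hexa and Neu3 lay between 0.32 and 0.47 above their level at 0.003%, against a median of 0.12 for all named genes, but the direction turned with spike-in scaling, to -0.64, -0.59 and -0.50, and for Neu1 and Hexa with the array median, to -0.09 and -0.04.

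Other genes of the route, from lists that do not follow the symbol rule, were read in the same way. Of 32 further lysosomal hydrolases and activators, 24 were measured, and 20 of 23, 21 of 23 and 21 of 22 lay below the named-gene median. At least 2-fold lower were 8 of 23, 5 of 23 and 4 of 22, where 12, 8.19 and 5.21% of named genes were, and 0 were 2-fold higher. With array median scaling 10, 12 and 13 were lower, with 15.8, 17.6 and 21.8% of named genes, and with spike-in scaling 13, 16 and 21, with 18.2, 27.9 and 59% of named genes. Gaa, the acid alpha-glucosidase that digests glycogen, stood at 5.52 in the control and at 3.93, 4.02 and 4.22, below it by 1.59, 1.50 and 1.30 in size. Its promoter holds the CLEAR core, as do 2 of 15 promoters of these hydrolases (13.3%). The other, that of Galc, belongs to a gene near background that was at 0.39 at 0.003%. The antioxidant response element was found in 5 of the 15 (33.3%), against 10.1% of all promoters. Those were the promoters of Acp5, Fuca1, Galc, Manba and Tpp1.
Gaa (chr10:105028265-105028324, plus strand): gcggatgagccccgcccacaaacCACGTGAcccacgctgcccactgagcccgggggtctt
Psap, the precursor of the saposin activators, was at -1.14, -1.42 and -1.40, and Gm2a, the activator that presents ganglioside to beta-hexosaminidase, at -1.27, -1.33 and -1.30. Man2b1, the acid alpha-mannosidase, was at -1.48, -1.19 and -0.95, and Gusb, beta-glucuronidase, at -1.20, -0.88 and -0.54. Pla2g15, a lysosomal phospholipase, was at -0.39, -1.11 and -1.35, and at -0.19, -0.46 and -0.45 with normexp. Under the array median, quantile, spike-in and normexp settings these 6 genes were all below the control at every dose.

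Of 12 measured lysosomal membrane and sorting genes 0 were 2-fold from the control at any dose, with medians of -0.43, -0.28 and -0.29. However, 2, 4 and 5 were at least 2-fold lower with array median and 2, 5 and 11 with spike-in scaling. Of named genes 15.8, 17.6 and 21.8% were lower with array median and 18.2, 27.9 and 59% with spike-in scaling. Among 14 genes of autophagy initiation, nucleation and cargo reception, 3, 3 and 1 were at least 2-fold higher and 0, 1 and 2 lower, where 16.2, 15.1 and 14% of named genes were higher and 12, 8.19 and 5.21% lower. With spike-in scaling 2, 1 and 0 were higher and 1, 3 and 10 lower. Of named genes 12.1, 6.91 and 2.67% were then higher and 18.2, 27.9 and 59% lower. Wipi2, which reads the lipid made at the start of the autophagosome, was at 2.23, 2.07 and 1.27. At 0.009% Wipi2 was at 0.71 with the array median and at 0.09 with spike-in scaling. The cargo receptors Sqstm1 (p62) and Nbr1 were at 1.16, 1.14 and 0.76, and at 1.94, 1.02 and 0.15. Both receptors were negative at 0.009% with spike-in scaling, and Nbr1 also with the array median. A second Nbr1 probe gave -0.22, 0.76 and 0.39, so the value at 0.003% depended on the probe, while 3 further Sqstm1 probes were between 1.30 and 1.62 at that dose. Pik3c3, the kinase that makes that lipid, was at -0.41, -0.80 and -1.24, and Bnip3, a mitophagy receptor, at -0.61, -1.05 and -1.25.

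Of 12 measured genes of the TFEB family and of mTORC1 regulation, 3, 2 and 1 were at least 2-fold higher and 2, 2 and 2 lower. Of named genes 16.2, 15.1 and 14% were higher and 12, 8.19 and 5.21% lower. The 2 of 12 higher at 0.006% is near the 15.1% of named genes. With spike-in scaling 1, 1 and 0 were higher and 4, 4 and 8 lower. Of named genes 12.1, 6.91 and 2.67% were then higher and 18.2, 27.9 and 59% lower. Tfeb stood at 1.18 in the control and at 0.13, 0.42 and 0.83, and so was at -1.06, -0.77 and -0.36. Mtor, the kinase that holds autophagy back, was at -1.17, -1.48 and -1.74, though between -0.46 and -0.31 with normexp. Ddit4 and Rragc, an inhibitor of mTORC1 and a GTPase that brings it to the lysosome, were at 1.64, 1.69 and 1.35, and at 1.15, 1.20 and 0.88, the last negative with spike-in scaling. At 0.009% Ddit4 was at 0.79 with the array median and at 0.17 with spike-in scaling. Tsc2 was at -0.93, -1.03 and -1.09, and its partner Tsc1 at 1.16, 0.20 and -0.17, the middle value negative with array median and spike-in scaling and the last positive with normexp. Of 6 cathepsin inhibitors and sensors of lysosome damage, Cst6, a secreted cathepsin inhibitor, was at 1.12, 1.67 and 2.36 (0.32, 0.55 and 0.93 with normexp), and Lgals8, which binds sugars exposed on broken lysosomes, at 1.60, 1.11 and 0.52, the last negative with array median and spike-in scaling. A second Lgals8 probe gave 0.40, 0.24 and -0.06.

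**Figure D4:**
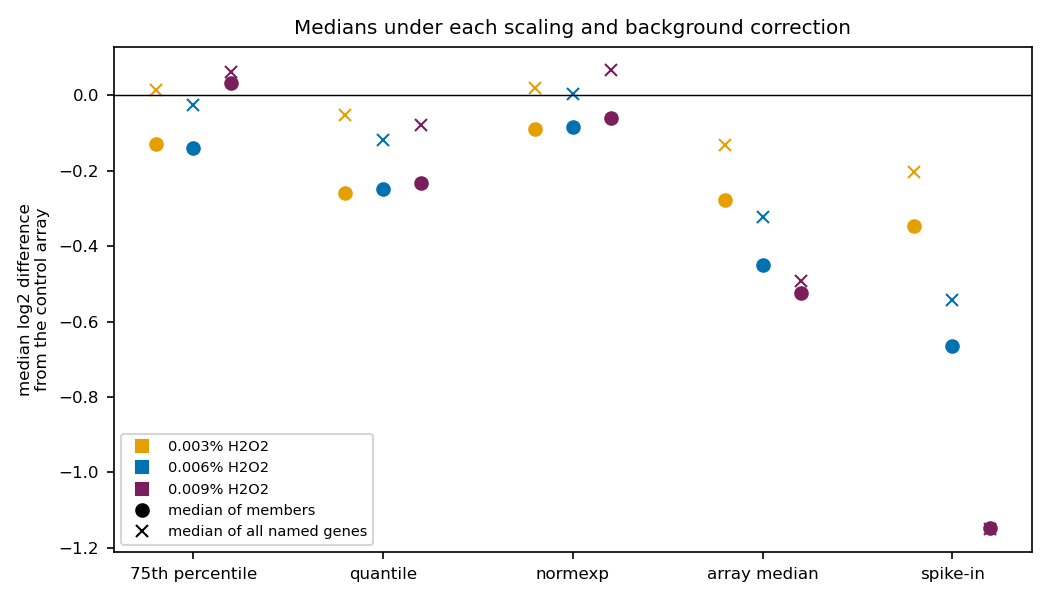
Median log2 difference from the control array (y axis) of the members (circles) and of all named genes (crosses) at each dose, under 5 settings of scaling or background (x axis). Both medians move down together with array median and spike-in scaling, and the members' median reaches -1.15 at 0.009% with the latter.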

How the data were processed

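Per the file headers, scans were read by Feature Extraction software (Agilent, 10.7.3.1, protocol GE1_107_Sep09, design 014879, annotated on rn4). The deposited signal is a linear intensity that the authors' software had background-subtracted and detrended, unscaled between arrays. The authors' value table, tried as an alternative, gives each probe's ratio to the array median, as 100% of probes matched to within 1e-06.

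Outlier spots were left out, log2 signals averaged by probe, and the log2 75th percentile of the array's 43379 noncontrol spots subtracted. RefSeq accessions named 10826 of 41012 probes (26.4%) through a GRCr8 gene table. A gene took its brightest probe well above background on at least 1 array. For a bound, the dim side took whichever was higher, its own level or the lowest level called well above background on that array. The trend used limma 3.58.1 (R 4.3.3) with Benjamini-Hochberg adjustment over all features, and was tested on simulated data. Normexp (offset 50) used the spots' median signals, since the planned mean signal is not among the columns used here.

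The members and lists were chosen with earlier results of these data known. The rule for values at every dose took members at least 2-fold from the control and the 2 of each role with the smallest differences; the remaining members are given because all are accounted for. From the other lists it took genes past 2-fold and well above background on all 4 arrays, at most 6 a list, and Sqstm1, Tfeb and Tfe3 where measured. The pairs of members and the count below the named-gene median were chosen after values were seen. A member counted in the totals is not reported here by its own values. The number of arrays, 1 per dose, limits the precision of every value.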

Additional observations from a re-analysis of the deposited data

How the results depend on the processing

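Of 281 values of 29 counts and medians recomputed under alternatives, 205 stayed the same and 76 did not. A count stayed the same if it was within 1.5 times of its main value. A median did if it moved by less than the members' median spot error, which was 0.2041 at 0.009% against the control. The cause was not tested beyond the constants given above. With array median scaling, and equally with the authors' value table, members at least 2-fold higher were 2, 1 and 1 at 0.003, 0.006 and 0.009% and 1 for 0.009 against 0.003%, and those lower were 5, 6, 6 and 2. Of named genes 15.8, 17.6 and 21.8% were lower than the control at the 3 doses with array median scaling, and 13.2, 9.43 and 5.2% higher. The members' medians were -0.45 and -0.52 at 0.006 and 0.009%, and -0.26 for 0.009 against 0.003%; 0 members were higher at every step, 10 lower, 3 lower first and then higher, and 13 the reverse. With spike-in scaling, 2, 1, 1 and 0 were higher and 6, 10, 25 and 10 lower, the medians were -0.35, -0.66, -1.15 and -0.82, the shapes held 0, 21, 0 and 12 members, and Gabarapl1 at 0.009% was at -0.0893. Of named genes 18.2, 27.9 and 59% were lower than the control at the 3 doses with that scaling, and 12.1, 6.91 and 2.67% higher. With quantile normalization, 5 and 2 were lower at 0.003 and 0.006%, 1 was higher at 0.006%, at 0.009% and for 0.009 against 0.003%, the median at 0.009% was -0.23, 4 ATG and Atg8 genes lay below the named-gene median at 0.006%, and 2 members were higher and 1 lower at every step. Lower than the control with quantile normalization were 12.9 and 9.53% of named genes at 0.003 and 0.006%. Higher were 12.1 and 8.42% at 0.006 and 0.009%. With normexp, 2, 1, 0 and 0 were higher, 0 lower at 0.006%, and 2 were higher and 3 lower at every step. Among named genes normexp gave 8.49 and 7.35% higher and 6.49 and 4.98% lower at 0.003 and 0.006%. Where both arrays had to be well above background, 2, 1, 1 and 1 were higher. With no filter on dim probes, 4, 5 and 6 were higher at 0.006%, at 0.009% and for 0.009 against 0.003%, 5, 2 and 2 were lower at 0.003%, at 0.006% and for 0.009 against 0.003%, the median at 0.009% was 0.31, and 6 and 6 ATG and Atg8 genes lay below the named-gene median at the 2 higher doses. With the percentile over probes well above background on all arrays, 0 were lower at 0.009 against 0.003%. Shares of named genes are not given under these settings for the shapes over dose or for 0.009 against 0.003%. A count without such a share is not read as a trait of the members.

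No paired analysis was possible because each dose has 1 array. Probes near background, such as those of Ctss, Atp6v1h and Atp6v0d2, give bounds, and normexp shrinks their differences most among the members past 2-fold. The trend called 0 members under each of its alternatives. By limma, 1 to 4 of 40 members were at an unadjusted p under 0.05, as were 12 to 24.7% of all features.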
